A study of Mus musculus with 19 samples.

Results

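The uptake, synthesis, binding and breakdown of retinoic acid were followed through 9 genes in sorted endothelium of mouse lymphoid tissues: Stra6, Rdh10, Aldh1a1, Aldh1a2, Aldh1a3, Crabp2, Rarb, Cyp26a1 and Cyp26b1. They are a chosen list, not all genes, of retinol uptake and of retinoic acid synthesis, binding, response and breakdown. Each symbol stood alone on a probe set, and the list was chosen with earlier results of these data known. These 9 of the 19938 genes measured on the arrays had 1 probe set each.

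Retinoic acid is made from vitamin A. Cells take up retinol from its plasma carrier through the membrane receptor STRA6, oxidise it to retinaldehyde with RDH10, and oxidise that to retinoic acid with an ALDH1A enzyme. CRABP2 carries retinoic acid to nuclear receptors such as RARB, whose own gene responds to the ligand, and CYP26A1 and CYP26B1 hydroxylate and inactivate it. In the gut and its draining lymph nodes, retinoic acid made by dendritic and stromal cells gives lymphocytes their gut-homing receptors.

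RNA was measured on 19 whole-transcript arrays of endothelial cells sorted from BALB/c mice of 6 to 8 weeks, an equal mix of males and females, with no treatment named in the labels. The venules by which lymphocytes enter these tissues have a lining of tall cells, here HEC (high endothelial cells), and capillary cells form the exchange vessels. HEC came from Peyer's patches (n = 3), from mesenteric nodes in a MAdCAM1+/PNAd+ gate (n = 2) and a MAdCAM1+ gate (n = 2), and from peripheral nodes (n = 4), and capillary cells came from Peyer's patches (n = 3), mesenteric nodes (n = 2) and peripheral nodes (n = 3). MAdCAM1 and PNAd are the vascular addressins that lymphocytes bind, and the labels give no gate for the other sorts. They do not say whether replicates came from separate animals, so the spread among the samples of a group may be technical. Each p-value is set against that spread pooled over the 7 groups and drawn toward the spread of all genes. The deposited log2 signals had been centred probe set by probe set, so a value of 0 is no absence of RNA and levels cannot be compared between genes.

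The sorts carried the markers of their labels. In HEC against capillary cells, as the mean of the 3 tissues, 7 of 7 high endothelial markers were higher and 6 of 6 capillary markers lower. Of all genes 18.0% were higher and 15.9% lower there. Pecam1, a junction protein of all endothelium, differed by -0.06 ± 0.06 on the log2 scale (SE, limma adjusted p = 0.503). Another, Cdh5, was lower in HEC (-0.37 ± 0.05, limma adjusted p = 6.26e-06). Means of 10 pan-endothelial markers, these included, were lower in HEC arrays (-0.33 to 0.18) than in capillary arrays (0.55 to 0.84). Markers of other cells also moved: 5 of 5 B cell markers were higher in HEC and 7 of 8 pericyte and smooth muscle markers were lower. Peripheral capillary arrays 1 and 2 stood apart from array 3, with mean high endothelial marker values of 1.31 and 1.13 against 0.18, while other capillary arrays lay between -0.83 and -0.11 and HEC arrays between 3.48 and 4.05. Results that rest on these arrays are given with and without them where they change.

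Of the members 4 varied and 5 did not beyond the background. The range over the 19 arrays was 4.18 for Stra6, 3.81 for Cyp26b1, 3.15 for Rdh10 and 1.68 for Rarb, each on the log2 scale. The 1207 olfactory, vomeronasal and trace amine receptor genes, which endothelium is not known to use, had a median range of 0.401 and a 95th percentile of 0.767. Aldh1a1 (0.72), Cyp26a1 (0.66), Aldh1a2 (0.63), Crabp2 (0.46) and Aldh1a3 (0.38) stayed under that percentile. Of all genes 44.0% had a range above it, so the members' share was near that of all genes.

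Stra6 was highest in HEC of Peyer's patches and mesenteric nodes, intermediate in peripheral HEC and low in all capillary cells. Its values were 3.20, 3.02 and 3.21 in Peyer's patch HEC, 2.71 and 2.59 in mesenteric MAdCAM1+/PNAd+ HEC, 2.52 and 2.32 in mesenteric MAdCAM1+ HEC, and 1.10, 1.08, 0.93 and 1.36 in peripheral HEC. Capillary cells gave 0.00, -0.60 and -0.46 in Peyer's patches, -0.60 and -0.86 in mesenteric nodes, and -0.25, -0.97 and -0.62 in peripheral nodes. No HEC array overlapped a capillary array, and the 4 HEC groups did not overlap each other, while the 3 capillary groups did.

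Stra6 was higher in HEC than in capillary cells in every tissue, by 3.50 ± 0.17 in Peyer's patches (log2 difference ± SE, 11.3-fold, limma adjusted p = 1.13e-10), 3.26 ± 0.18 in mesenteric nodes (9.6-fold, adjusted p = 8.05e-10) and 1.73 ± 0.16 in peripheral nodes (3.32-fold, adjusted p = 3.15e-07). Within HEC it was 4.08-fold higher in Peyer's patches than in peripheral nodes (2.03 ± 0.16, limma adjusted p = 3.26e-07), the 11th largest rise among 19938 genes, and 2.67-fold higher in mesenteric than in peripheral nodes (1.42 ± 0.15, adjusted p = 1.93e-05), the 10th largest. The Peyer's patch HEC exceeded the mesenteric HEC by 0.61 ± 0.16, which did not pass (limma adjusted p = 0.0827), although the arrays did not overlap. That adjusted p was 0.0487 with the replicate number as a block and 0.0482 without peripheral capillary arrays 1 and 2.

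Peyer's patches and mesenteric nodes were closer to peripheral nodes in capillary cells than in HEC. Stra6 differed by 0.26 ± 0.17 between Peyer's patch and peripheral capillary cells (limma adjusted p = 0.642) and by -0.11 ± 0.19 between mesenteric and peripheral capillary cells (adjusted p = 1). Peyer's patch and mesenteric capillary cells differed by 0.37 ± 0.19 (adjusted p = 0.728). The difference of HEC from capillary cells was larger in Peyer's patches than in peripheral nodes by 1.77 ± 0.23 (interaction, limma adjusted p = 0.000227) and larger in mesenteric than in peripheral nodes by 1.53 ± 0.24 (adjusted p = 0.00583). The third interaction, Peyer's patches minus mesenteric nodes, was 0.24 ± 0.25 and did not pass (limma adjusted p = 0.898). Without mesenteric capillary array 2 the second of these was 1.40, with an adjusted p of 0.0736.

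Markers of intestinal epithelium were also higher in Peyer's patch HEC, 8 of 10 against peripheral HEC, beside 2.16% of all genes. Their mean values were 0.38 to 0.86 in Peyer's patch HEC and -0.25 to -0.04 in peripheral HEC. In mesenteric HEC 0 of 10 of these markers passed the limma test against peripheral HEC, beside 2.69% of all genes. Their mean values in mesenteric HEC were -0.10 to 0.03. B cell markers averaged 0.30 to 0.55 in Peyer's patch HEC, 0.50 to 0.77 in mesenteric HEC and 0.71 to 0.96 in peripheral HEC. The part of either marker list in the Peyer's patch result was not tested. In bulk samples a smaller share of cells of a type and less RNA in each cell cannot be told apart.

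Rdh10, the retinol dehydrogenase that opens retinoic acid synthesis, was also higher in HEC, but its order over tissues ran the other way. It measured 0.71, 0.52 and 1.25 in Peyer's patch HEC, 1.53 and 1.69 in mesenteric MAdCAM1+/PNAd+ HEC, 1.19 and 0.99 in mesenteric MAdCAM1+ HEC, and 2.03, 1.75, 2.05 and 1.97 in peripheral HEC. Capillary cells gave -1.10, -0.91 and -0.93 in Peyer's patches, -0.69 and -0.43 in mesenteric nodes, and 1.05, 0.01 and 0.00 in peripheral nodes. Within each tissue the HEC arrays lay above the capillary arrays. Peripheral capillary array 1, at 1.05, overlapped HEC of the other tissues, and it was the capillary array with the highest high endothelial marker mean.

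The difference of HEC from capillary cells in Rdh10 was 1.80 ± 0.22 in Peyer's patches (3.49-fold, limma adjusted p = 1.09e-05), 1.91 ± 0.24 in mesenteric nodes (3.76-fold, adjusted p = 1.46e-05) and 1.59 ± 0.21 in peripheral nodes (3.01-fold, adjusted p = 2.14e-05, and 1.95 without peripheral capillary arrays 1 and 2). None of its 3 interactions passed: Peyer's patches minus peripheral nodes gave 0.21 ± 0.31 (limma adjusted p = 0.712), mesenteric minus peripheral nodes 0.32 ± 0.32 (adjusted p = 0.976) and Peyer's patches minus mesenteric nodes -0.11 ± 0.33 (adjusted p = 0.968). Peyer's patches were lower than peripheral nodes in both cell types. Rdh10 fell by 1.12 ± 0.21 in Peyer's patch HEC (2.18-fold, limma adjusted p = 0.0028) and by 1.34 ± 0.22 in Peyer's patch capillary cells (2.52-fold, adjusted p = 0.00112). In capillary cells the difference was -0.99 without peripheral capillary array 1, which lay at 1.05, and -0.98 without arrays 1 and 2 (limma adjusted p = 0.002 and 0.0316). High endothelial markers moved with it there: 1 was higher and 5 of 7 were lower in Peyer's patch than in peripheral capillary cells, with a median difference of -1.06. Of all genes 2.40% were higher and 2.24% lower there. The part of these markers in the Rdh10 difference was not tested. Mesenteric HEC differed from peripheral HEC by -0.60 ± 0.19 (limma adjusted p = 0.14, and 0.025 without peripheral capillary arrays 1 and 2).

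**Figure D1:**
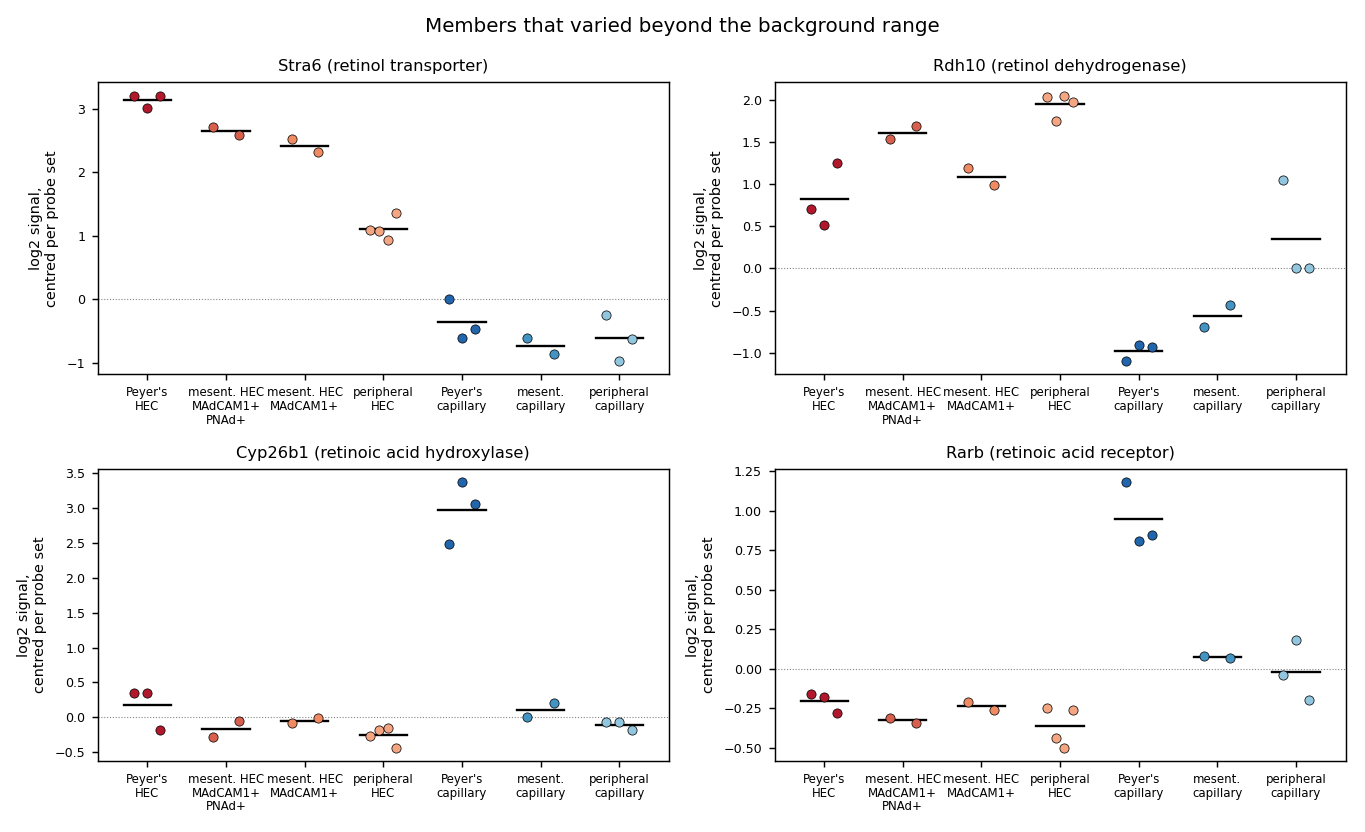
Centred log2 signal (vertical axis) of Stra6, Rdh10, Cyp26b1 and Rarb in each of the 19 arrays, by group (horizontal axis), with 1 point for each array and a bar for the group mean. Stra6 lay at 2.32 to 3.21 in HEC of the gut-associated tissues, and Cyp26b1 lay at 2.48 to 3.37 in Peyer's patch capillary cells and no higher than 0.35 in every other group.

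The plot of the values by array shows that the other varying members, Cyp26b1 and Rarb, were high in a different place. Cyp26b1, which inactivates retinoic acid, measured 2.48, 3.37 and 3.06 in Peyer's patch capillary cells, against 0.00 and 0.21 in mesenteric and -0.07, -0.07 and -0.18 in peripheral capillary cells. HEC gave 0.35, 0.35 and -0.18 in Peyer's patches, -0.28, -0.06, -0.09 and -0.01 in mesenteric nodes, and -0.27, -0.18, -0.16 and -0.44 in peripheral nodes. The Peyer's patch capillary arrays stood above every other array, and the other groups ran from -0.44 to 0.35.

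Among capillary cells Cyp26b1 was 8.43-fold higher in Peyer's patches than in peripheral nodes (3.07 ± 0.18, limma adjusted p = 1.00e-08) and 7.29-fold higher than in mesenteric nodes (2.87 ± 0.20, adjusted p = 2.11e-07), the 4th largest rise of 19938 genes in both comparisons. Within Peyer's patches it was 6.95-fold lower in HEC than in capillary cells (-2.80 ± 0.18, limma adjusted p = 3.31e-09). The same difference was -0.22 ± 0.19 in mesenteric nodes (limma adjusted p = 0.598) and -0.16 ± 0.17 in peripheral nodes (adjusted p = 0.517). The interactions passed against peripheral nodes (-2.64 ± 0.24, limma adjusted p = 4.39e-06) and against mesenteric nodes (-2.58 ± 0.26, adjusted p = 3.64e-05). Peyer's patch HEC differed from peripheral HEC by 0.44 ± 0.17 (limma adjusted p = 0.129), and passed without Peyer's patch HEC array 3 (0.61, adjusted p = 0.0191) and with array quality weights (0.59, adjusted p = 0.000131).

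Rarb, the retinoic acid receptor beta gene, measured 1.18, 0.81 and 0.85 in Peyer's patch capillary cells, against 0.08 and 0.07 in mesenteric and -0.04, 0.18 and -0.20 in peripheral capillary cells. In HEC it lay at -0.16, -0.18 and -0.28 in Peyer's patches, -0.31, -0.34, -0.21 and -0.26 in mesenteric nodes, and -0.25, -0.44, -0.50 and -0.26 in peripheral nodes. Again the Peyer's patch capillary arrays stood above all others. Rarb was 1.95-fold higher in Peyer's patch than in peripheral capillary cells (0.97 ± 0.11, limma adjusted p = 2.76e-05) and 1.83-fold higher than in mesenteric capillary cells (0.87 ± 0.12, adjusted p = 0.000642).

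Rarb was lower in HEC than in capillary cells of Peyer's patches (-1.16 ± 0.11, 2.23-fold, limma adjusted p = 4.91e-07). In peripheral nodes the difference was -0.34 ± 0.10 (limma adjusted p = 0.0227) and lost the call without peripheral capillary arrays 1 and 2 (-0.16, adjusted p = 0.514), without array 2 alone (-0.24, adjusted p = 0.155), and without peripheral HEC array 2 (-0.32) or 3 (-0.30). In mesenteric nodes it was -0.36 ± 0.12 and did not pass (limma adjusted p = 0.0508), though it did in 8 of the 28 alternative fits. The interaction was -0.81 ± 0.15 for Peyer's patches minus peripheral nodes (limma adjusted p = 0.00441) and -0.80 ± 0.16 for Peyer's patches minus mesenteric nodes (adjusted p = 0.0252), and the second did not pass in 9 of the 28 alternative fits.

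Beside the Cyp26b1 and Rarb values, 2 of 10 markers of intestinal epithelium were higher in Peyer's patch than in peripheral capillary cells. Of all genes 2.40% were higher and 2.24% lower in that comparison. The epithelial markers had mean values of 0.13, 0.80 and 1.28 in Peyer's patch capillary arrays 1 to 3, whose Cyp26b1 values were 2.48, 3.37 and 3.06. In Peyer's patch HEC their means were 0.38 to 0.86 and Cyp26b1 was no higher than 0.35. The part of these markers in the Cyp26b1 and Rarb results was not tested. High endothelial markers were 1 higher and 5 lower of 7 in Peyer's patch against peripheral capillary cells. Of pericyte and smooth muscle markers 0 were higher and 3 of 8 lower in Peyer's patch than in peripheral capillary cells, and of fibroblastic stroma markers 0 of 8 passed the limma test.

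The promoter windows of 3 members are printed because Rarb and the Cyp26 genes are known to respond to retinoic acid, whose receptors bind a direct repeat of a short element, and because Rarb and Cyp26b1 were both high in Peyer's patch capillary cells. RefSeq windows of GRCm38.p6, from 250 bases before to 50 after a gene's start, were at hand for 6 of the 9 members, in 10 windows. They were searched on both strands for the element AGGTCA, for its variants AGTTCA as well as GGGTCA, and for the variant GGTTCA, with any of these standing 2 times in the same direction and NNNNN between, which may overlap other matches. Each window is written 5′ to 3′ on the strand of the gene, in lower case with the elements of a repeat in capitals.
Rarb (chr14:16575427-16575726, minus strand): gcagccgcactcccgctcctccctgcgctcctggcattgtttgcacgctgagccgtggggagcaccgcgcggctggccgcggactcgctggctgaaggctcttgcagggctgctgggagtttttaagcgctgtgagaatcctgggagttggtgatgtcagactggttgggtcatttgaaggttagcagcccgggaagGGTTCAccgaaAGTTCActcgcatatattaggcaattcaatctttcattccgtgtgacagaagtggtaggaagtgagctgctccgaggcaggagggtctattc
Cyp26a1 (chr19:37697558-37697857, plus strand): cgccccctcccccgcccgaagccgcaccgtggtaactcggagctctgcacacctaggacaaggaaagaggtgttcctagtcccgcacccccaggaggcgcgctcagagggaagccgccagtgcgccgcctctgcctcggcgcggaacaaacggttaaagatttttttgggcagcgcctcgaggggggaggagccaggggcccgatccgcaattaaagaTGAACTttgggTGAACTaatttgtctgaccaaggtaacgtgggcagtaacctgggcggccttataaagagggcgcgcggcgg
Cyp26b1 (chr6:84593761-84594060, minus strand): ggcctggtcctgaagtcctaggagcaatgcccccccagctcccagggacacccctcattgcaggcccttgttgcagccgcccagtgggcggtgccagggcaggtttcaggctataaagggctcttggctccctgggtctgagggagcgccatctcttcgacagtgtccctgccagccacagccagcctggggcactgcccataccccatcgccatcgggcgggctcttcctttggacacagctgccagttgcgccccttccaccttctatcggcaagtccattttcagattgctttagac

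The repeat stood in 32 of 32851 windows of all genes (0.0974%), and a single element in 43.7% of them. In Rarb it lay from base -53 to base -37 relative to the start, and in Cyp26a1 from base -32 to base -16 on the opposite strand, so that the capitals there read as the reverse complement. The Cyp26b1 window held 0 repeats and 0 single elements, and the 4 windows of Stra6 held 0 repeats. A match describes these letters only. Rarb varied over the arrays and Cyp26a1, with the same kind of repeat, stayed within the background range.

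The enzymes of the last synthetic step varied little. Aldh1a1 lay between -0.37 and 0.35 over the HEC arrays and between -0.10 and 0.26 over the capillary arrays. Aldh1a2, the form that dendritic cells and stroma use in the gut, lay between -0.42 and 0.21 in HEC and between -0.15 and 0.14 in capillary cells, and Aldh1a3 lay between -0.19 and 0.02 in HEC and between -0.20 and 0.18 in capillary cells. Cyp26a1, the other breakdown enzyme, ran from -0.24 to 0.42 in HEC and from 0.04 to 0.22 in capillary cells, and Crabp2, the carrier, from -0.09 to 0.13 in HEC and from 0.00 to 0.37 in capillary cells. These 5 genes passed the limma test in 0 of the 14 comparisons. The smallest adjusted p was 0.0508, for Crabp2 in HEC against capillary cells as the mean of the 3 tissues (-0.15 ± 0.06), and it passed in 7 of 27 alternative fits. In Peyer's patch against peripheral HEC, Aldh1a1 differed by 0.29 ± 0.11 (limma adjusted p = 0.112), Cyp26a1 by 0.27 ± 0.10 (adjusted p = 0.117) and Aldh1a2 by 0.23 ± 0.11 (adjusted p = 0.201). Those of Aldh1a1 and Cyp26a1 passed without Peyer's patch HEC array 3 (adjusted p = 0.0303 and 0.0425), and all 3 with array quality weights. Because values are centred, whether these probe sets were above background is unknown.

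**Figure D2:**
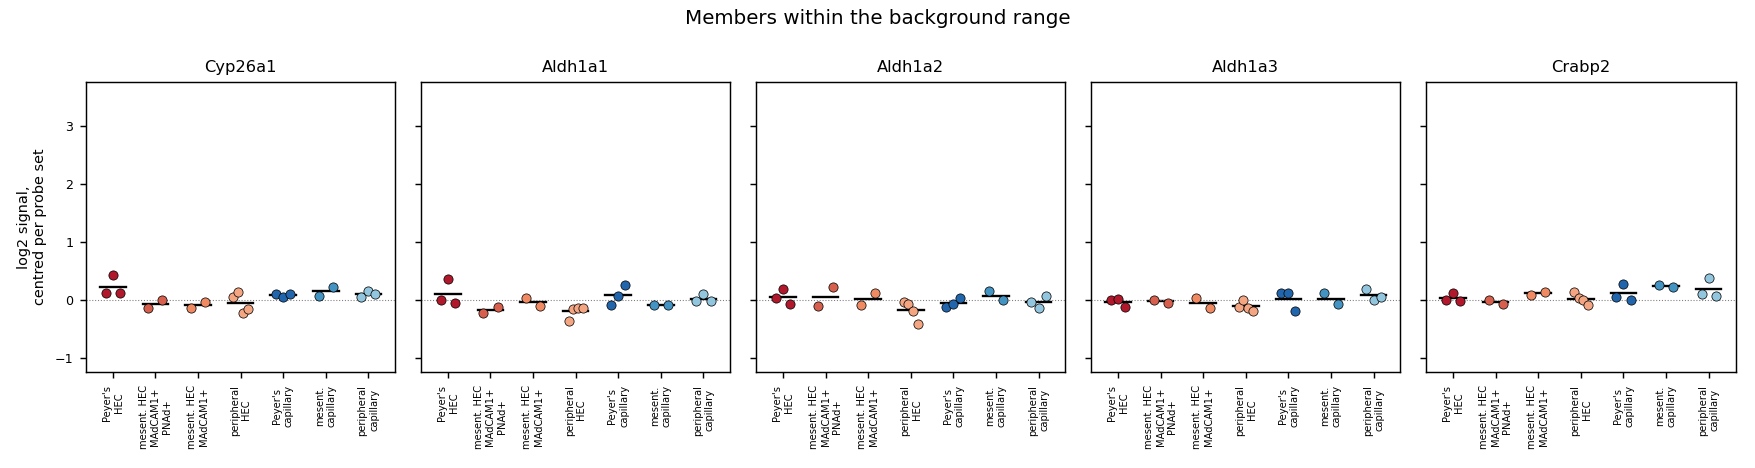
Centred log2 signal (vertical axis, shared) of Cyp26a1, Aldh1a1, Aldh1a2, Aldh1a3 and Crabp2 in each of the 19 arrays, by group, with 1 point for each array and a bar for the group mean. All values lie between -0.42 and 0.42, and HEC and capillary arrays overlap for each gene when the tissues are pooled. Within single tissues they lie apart in some cases for Cyp26a1, Aldh1a1, Aldh1a3 and Crabp2.

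Counted over the 9 members, HEC against capillary cells as the mean of the 3 tissues gave 2 higher (Stra6, Rdh10) and 2 lower (Cyp26b1, Rarb), where 33.9% of all genes passed the limma test at an adjusted p under 0.05. Of all genes 18.0% were higher and 15.9% lower there, so the members' share was near the background. In Peyer's patches the count was also 2 higher (8.90% of all genes) and 2 lower (10.6%), with 19.5% passing in either direction. In mesenteric nodes it was 2 higher (7.87% of all genes) and 0 lower (7.31%), with 15.2% in either direction, and in peripheral nodes 2 higher (13.1%) and 1 lower (11.4%), with 24.6% in either direction. The median difference of the members was -0.08 in the mean of tissues, beside -0.01 for all genes.

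Between tissues fewer genes passed at all. Peyer's patch HEC against peripheral HEC gave 1 member higher (Stra6, 2.16% of all genes) and 1 lower (Rdh10, 4.49%), with 6.65% passing in either direction, and mesenteric HEC against peripheral HEC gave Stra6 alone (2.69%). Peyer's patch against peripheral capillary cells gave 2 higher (Cyp26b1 and Rarb, 2.40% of all genes) and 1 lower (Rdh10, 2.24%), where 4.64% passed in either direction, and Peyer's patch against mesenteric capillary cells gave 2 higher (1.86%). Limma called 0 members in Peyer's patch against mesenteric HEC (1.20% of all genes; 3 members had an unadjusted p under 0.05), in mesenteric against peripheral capillary cells (0.291%; 1 member) and between the mesenteric gates (0.0201%; 0 members). The interactions called 3 members for Peyer's patches minus peripheral nodes (4.05% of all genes), 1 for mesenteric minus peripheral nodes (0.416%) and 2 for Peyer's patches minus mesenteric nodes (0.752%).

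**Figure D3:**
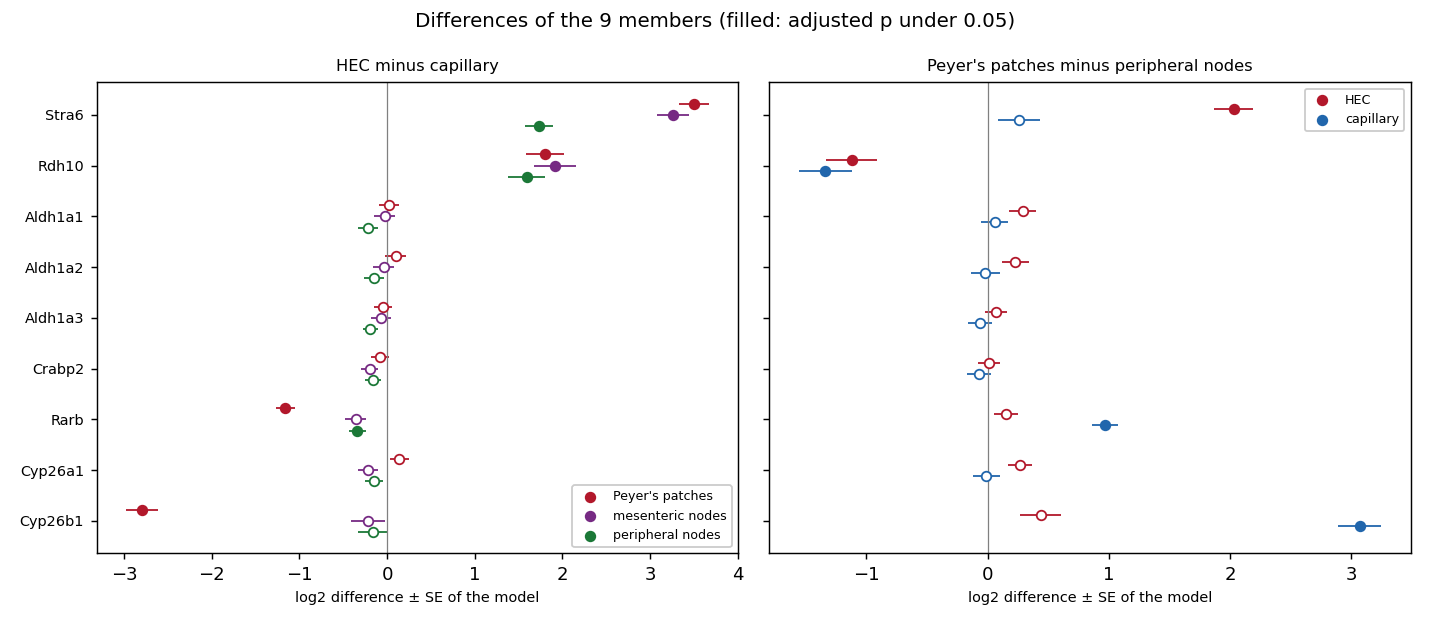
Log2 difference with its SE (horizontal axis) for the 9 members (vertical axis), for HEC minus capillary cells in each tissue (left) and for Peyer's patches minus peripheral nodes in each cell type (right). Filled symbols have a limma adjusted p under 0.05 and open symbols do not. Stra6 and Rdh10 lie right of 0 in the left panel in all 3 tissues, while Cyp26b1 reaches -2.80 in Peyer's patches alone.

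No member passed the limma test between the mesenteric gates. MAdCAM1+/PNAd+ cells exceeded MAdCAM1+ cells by 0.23 ± 0.21 for Stra6 and by 0.52 ± 0.28 for Rdh10, and differed by -0.12 ± 0.22 for Cyp26b1 and by -0.09 ± 0.14 for Rarb (limma adjusted p = 1 for each). The arrays of the gates did not overlap for Stra6, Rdh10 and Rarb, with 2 arrays in each gate. Nor did they overlap for Aldh1a1 and Crabp2, which stayed within the background range. The share of all genes without overlap between the gates was not counted.

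The genes whose pattern over the 19 arrays was most like that of a varying member were ranked by Pearson's r, given as a description of arrays that share groups. For Stra6 they were Madcam1 (r = 0.979), Cntnap1 (0.970) and Pou2af1 (0.963), of 783 genes ranked. The genes ranked had passed a floor on range set below the member's own range (2.35 for Cntnap1, 4.18 for Stra6). Madcam1, itself an antigen of the sort in mesenteric nodes, averaged 5.69 in Peyer's patch HEC and 1.97 in peripheral HEC. Pou2af1, a lymphocyte transcription coactivator, averaged 2.30 in Peyer's patch HEC and 1.11 in peripheral HEC.

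For Cyp26b1 the nearest genes were Tnfsf9 (r = 0.982), Tmem35a (0.979) and Enpp6 (0.956). Tnfsf9, a costimulatory ligand of the tumour necrosis factor family, averaged 1.66 in Peyer's patch capillary cells and -0.08 in peripheral capillary cells. For Rarb they were Fhl1 (0.972), Pcp4l1 (0.972) and Nkd2 (0.967), and for Rdh10 Dock10 (0.978), Cdh2 (0.972) and Rasal1 (0.971). Among the members, Cyp26b1 and Rarb had r = 0.904 and Stra6 and Rdh10 had r = 0.616, while Rdh10 had r = -0.845 with Rarb and -0.723 with Cyp26b1.

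Other genes of the pathway were followed in 6 lists with 79 genes, of which 73 were measured. The lists were chosen with earlier results of these data known, so their counts describe and do not test. Over all 73, 13 (17.8%) were higher and 24 (32.9%) lower in HEC than in capillary cells as the mean of the 3 tissues, beside 18.0% and 15.9% of all genes, with a median difference of -0.03 beside -0.01. Among 18 further retinol and retinaldehyde oxidoreductases, 8 were higher and 2 lower there, with a median difference of 0.09. Rdh1 measured 2.79, 2.61 and 3.03 in Peyer's patch HEC and 2.40, 2.32, 2.50 and 2.71 in peripheral HEC, against -0.30, 0.07 and -0.04 in Peyer's patch and 0.02, 0.02 and -0.22 in peripheral capillary cells. It was 6.7-fold higher in HEC (2.74 ± 0.07, limma adjusted p = 1.04e-14), without overlap. Rdh9 was 4.45-fold higher (2.16 ± 0.12, adjusted p = 9.56e-11), but it is a close paralogue of Rdh1, so the separate values of these 2 genes are uncertain.

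Dhrs3, which reduces retinaldehyde back to retinol and responds to retinoic acid, moved the other way. It measured -2.00, -2.15 and -2.15 in Peyer's patch HEC, -1.79, -2.05, -1.57 and -1.40 in mesenteric HEC, and -0.16, -0.29, -0.26 and 0.09 in peripheral HEC, against 0.50, 0.52 and 0.41 in Peyer's patch, 0.61 and 0.62 in mesenteric and 0.35, 0.22 and 0.45 in peripheral capillary cells. The HEC arrays of both gut-associated tissues lay below all others. Dhrs3 was 3.84-fold lower in Peyer's patch than in peripheral HEC (-1.94 ± 0.10, limma adjusted p = 1.48e-09), and mesenteric HEC were lower than peripheral HEC by a log2 difference of -1.54 ± 0.09 (adjusted p = 4.23e-08). Its interaction was -2.08 ± 0.15 for Peyer's patches minus peripheral nodes (limma adjusted p = 1.66e-07) and -1.81 ± 0.15 for mesenteric minus peripheral nodes (adjusted p = 2.09e-05). Its difference thus ran opposite in sign to that of Stra6 in both interactions.

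Of 12 measured genes of retinol binding and uptake, 1 was higher (8.33%) and 5 were lower (41.7%) in HEC than in capillary cells as the mean of the 3 tissues. Of all genes 18.0% were higher and 15.9% lower there. The median difference of the list was -0.18, beside -0.01 for all genes. Rbp7, a cellular retinol-binding protein, was lower by a log2 difference of -3.88 ± 0.19 (limma adjusted p = 3.81e-11). Its values were 3.11, 2.28 and 2.34 in Peyer's patch, 5.64 and 4.55 in mesenteric and 3.04, 4.48 and 4.39 in peripheral capillary cells, and between -0.42 and 0.28 in HEC. Scarb1, a receptor for lipoproteins and carotenoids, was lower, at a log2 difference of -1.38 ± 0.06 (limma adjusted p = 5.18e-12).

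Among 13 nuclear receptors and cofactors 4 were higher (30.8%) and 3 lower (23.1%) in the same comparison, with a median difference of -0.05. Beside this list and those below, 18.0% of all genes were higher and 15.9% lower. Nr2f2, an orphan receptor of venous endothelium, was 3.91-fold higher in HEC (1.97 ± 0.09, limma adjusted p = 9.70e-12), and Ppard, a fatty acid receptor, was higher by 0.64 ± 0.06. Rarg, the gamma retinoic acid receptor, measured -0.80, -0.88 and -0.59 in Peyer's patch HEC and -1.09, -0.62, -0.73 and -0.79 in peripheral HEC, against 0.82, 0.77 and 0.69 in Peyer's patch and 0.48, 0.43 and 0.26 in peripheral capillary cells. It was 2.64-fold lower in HEC (-1.40 ± 0.07, limma adjusted p = 3.16e-11), and Rxra, the shared partner of these receptors, was lower, at -0.68 ± 0.05. Of 8 retinyl ester and carotenoid genes 0 were higher and 3 lower, Lipe, Dgat1 and Lrat, at -0.37 to -0.15, though Lrat lost the call in 19 of 27 alternative fits. Of 4 further breakdown enzymes 0 were higher and 3 lower, with Cyp1a1 at -0.61 ± 0.09. Within single tissues Cyp1a1 passed the limma test in mesenteric nodes alone, at -1.28 ± 0.16. Of the others, Cyp26c1 lost the call in 11 of 27 alternative fits and Cyp1b1 in 1 of 28.

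A further 18 genes known to respond to retinoic acid in some tissue were measured. The list was chosen with earlier results of these data known, so its shares beside all genes are a description and no test. In HEC against capillary cells as the mean of the 3 tissues 0 were higher and 8 lower (44.4% of the list, beside 15.9% of all genes). In Peyer's patch against peripheral HEC 5 were higher (27.8%, beside 2.16% of all genes) and 2 lower (11.1%, beside 4.49%), with a median difference of 0.23 beside 0.03. In Peyer's patch against peripheral capillary cells 5 were higher (27.8%, beside 2.40%) and 0 lower, with a median of 0.00 beside -0.02. Meis2, a homeobox transcription factor, was 5.34-fold higher in Peyer's patch than in peripheral HEC (2.42 ± 0.17, limma adjusted p = 6.63e-08) and 7.36-fold higher in Peyer's patch than in peripheral capillary cells (2.88 ± 0.18, adjusted p = 1.88e-08, and 3.52 with quantile normalisation). Tgm2, a transglutaminase, was lower in Peyer's patch than in peripheral HEC, at -1.37 ± 0.13 (limma adjusted p = 2.16e-06). Members of this list thus moved in both directions between the same HEC samples.

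**Figure D4:**
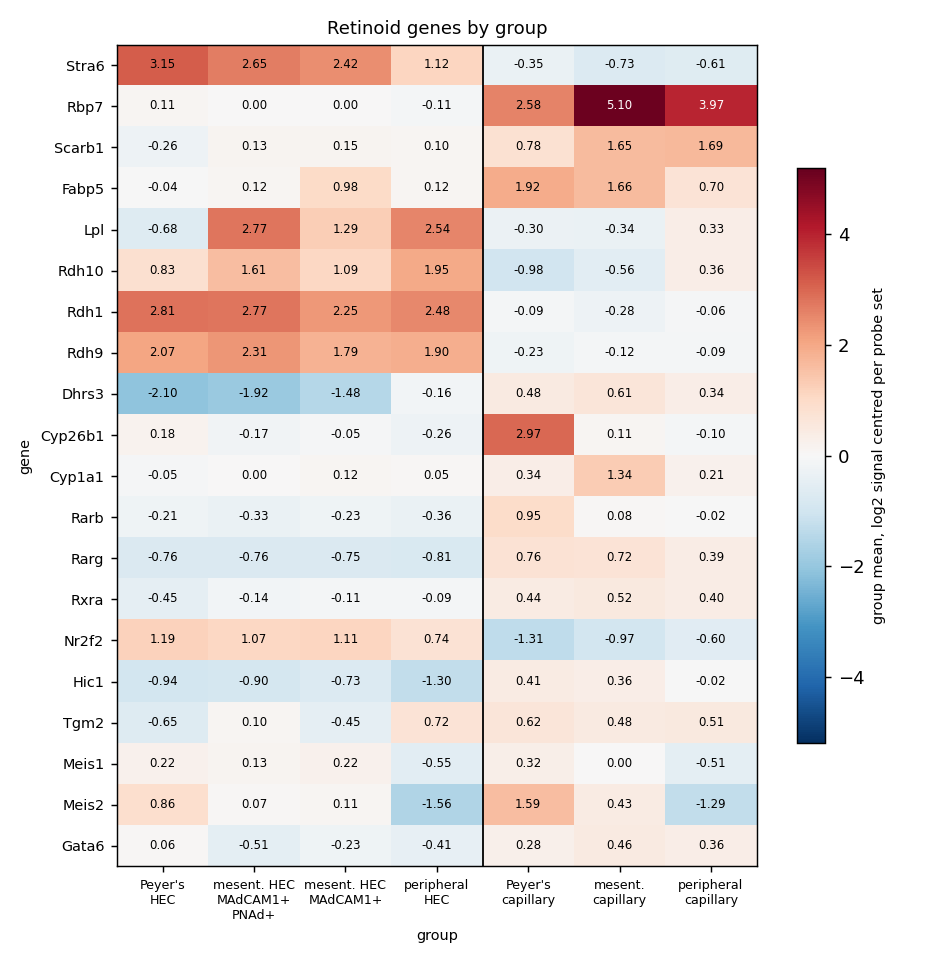
Mean centred log2 signal (colour and printed value) of retinoid genes (rows) in the 7 groups (columns). Stra6, Rdh10 and Rdh1 are high in the HEC groups, Cyp26b1 is high in Peyer's patch capillary cells, and Dhrs3 is low in HEC of Peyer's patches and mesenteric nodes.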

How the data were processed

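Total RNA of sorted endothelial cells was amplified, labelled and hybridised to whole-transcript arrays, per the labels' protocols. The values deposited by the authors are log2 signals; RMA and Partek are named, without versions, per the submitters' processing notes. RMA normalises between arrays and compresses large folds. The values ran from -4.092 to 6.128 and were centred for each probe set, with an exact 0 in 54.47% of probe sets. The baseline, the build and the annotation used by the submitters are not given in the sources used here. Arrays have no read depth, so their number limits the precision.

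The platform annotation gave 1 gene symbol to 21789 of 28856 probe sets, several to 1621 and none here to 5446. Probe sets of a gene were averaged (999 genes), which gave 19938 genes. Every column was used. With limma 3.58.1 in R 4.3.3, the 7 group means were estimated from the 19 arrays together (12 residual degrees of freedom, ordinary prior), with Benjamini-Hochberg adjustment over all genes in each of 14 comparisons and a threshold of 0.05. Mesenteric HEC is the mean of both gates. The fit was checked on simulated data. Python 3.11.15 made the tables and matplotlib 3.10.9 the figures.

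The 9 members and all gene lists were chosen with earlier results of these data known. All members are named. From each list the text takes names among up to 4 genes with the smallest adjusted p past the threshold in HEC against capillary cells and in HEC of Peyer's patches against those of peripheral nodes, and up to 3 in other comparisons. The 3 most correlated genes are named for members with a called difference of at least 1, leaving out predicted genes, small RNAs, chemosensory receptors and antigen receptor segments. Alternatives were median centring, quantile normalisation, array quality weights, a robust prior, another probe set rule, a filter on range, only the groups compared, a replicate block, and leaving out arrays. Some listed genes were not analysed here.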

Additional observations from a re-analysis of the deposited data

Results flagged for a closer look

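The difference of HEC from capillary cells depended on the tissue in 6 of 27 interactions tested over the 9 members, by limma's test of the difference itself. For Stra6 it was larger by 1.77 in Peyer's patches than in peripheral nodes and by 1.53 in mesenteric than in peripheral nodes. For Cyp26b1 it was -2.64 for Peyer's patches minus peripheral nodes and -2.58 for Peyer's patches minus mesenteric nodes, and for Rarb -0.81 and -0.80 in the same order. All of these comparisons except that of mesenteric minus peripheral nodes share the Peyer's patch samples, and those of Stra6 share the peripheral samples.

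Aldh1a1 had 1 array apart from the rest in peripheral HEC, with values of -0.37, -0.16, -0.14 and -0.14 and a gap of 0.924 of the group's range. It was the 1 such array found when the 9 members were tested in this group of 4, and chance alone sets about 1 in 20 groups apart.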

How the results depend on the processing

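No called difference of a member changed sign in any of 9 alternative fits or with any of the 19 arrays left out, and of 27 differences called 24 were called in every one. The exceptions were Stra6 in the interaction of mesenteric minus peripheral nodes (1.40, adjusted p = 0.0736, without mesenteric capillary array 2), Rarb in peripheral HEC against capillary cells (-0.16, adjusted p = 0.514, without peripheral capillary arrays 1 and 2) and Rarb in the interaction of Peyer's patches minus mesenteric nodes (9 fits, adjusted p 0.0512 to 0.127). The cause was not tested. Array quality weights, whose estimation stopped before convergence, called 7 members in Peyer's patch against peripheral HEC (2 in the reported fit), 2 in mesenteric against peripheral HEC (1) and 4 in Peyer's patch against mesenteric HEC (0). The fit on only the groups compared called 2 in mesenteric against peripheral HEC and 1 in the interaction of Peyer's patches minus mesenteric nodes (2). Without peripheral capillary arrays 1 and 2 the counts were 2 and 1 in mesenteric against peripheral and Peyer's patch against mesenteric HEC.

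Leaving out single arrays gave 2 to 5 members in Peyer's patch against peripheral HEC (5 without Peyer's patch HEC array 3), 1 to 2 in mesenteric against peripheral HEC and 0 to 1 in Peyer's patch against mesenteric HEC (the higher count in both without peripheral capillary array 1), 0 to 1 in the interaction of mesenteric minus peripheral nodes and 1 to 2 in that of Peyer's patches minus mesenteric nodes. It gave 4 to 5 in HEC against capillary cells as the mean of tissues, 2 to 3 in peripheral and 2 to 3 in mesenteric nodes. Where 1 array was left in a group, it was assumed to vary like the other groups. The filter on range tested 4 of the 9 members. Of the other pathway genes, 15 were called in Peyer's patch against peripheral HEC (8 without Peyer's patch HEC array 1 or 2, 26 without array 3, 9 without peripheral HEC array 2 or 3, 45 with array quality weights, 7 on only the groups compared) and 11 in Peyer's patch against peripheral capillary cells (7 without peripheral capillary array 2, 5 without arrays 1 and 2).

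With the replicate number as a block, 1 member was called in Peyer's patch against mesenteric HEC (0 without). Same-numbered samples had a median correlation of deviations of 0.083 (-0.426 to 0.556, over 0.1 in 17 of 41 pairs). Differently numbered samples had a median of -0.013 (-0.582 to 0.608, over 0.1 in 37 of 112 pairs). These ranges overlapped and the labels state no pairing, so the numbers were not taken to pair samples. The gates share no numbers and had no such fit.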

Other observations

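Among genes of lipid and xenobiotic handling that the pathway lists also held, Lpl, the lipoprotein lipase, was lower in Peyer's patch than in peripheral HEC, at -3.22 ± 0.53 (limma log2 difference ± SE, adjusted p = 0.000968). Its values were -0.68, -0.91 and -0.44 in Peyer's patch HEC and 0.22, 3.24, 3.56 and 3.15 in peripheral HEC, where array 1 stood apart, and without that array the difference was -3.99 (adjusted p = 4.22e-09). Cyp1a1, a target of the aryl hydrocarbon receptor, was higher in mesenteric than in peripheral capillary cells by 1.13 ± 0.17 (limma adjusted p = 0.0053), although there only 0.291% of all genes passed. It lost that call without mesenteric capillary array 1 (0.84, adjusted p = 0.151), without peripheral capillary arrays 1 and 2 (1.22, adjusted p = 0.183) and in the fit on only the groups compared (adjusted p = 0.255). These values are given without explanation.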
